A study of Mus musculus with 35 samples.

Results

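The interleukin receptor chains of CD8 T cells, and genes that damp their signal, were followed across liver and spleen: 8 receptor chains (Il7r, Il2rb, Il2rg, Il2ra, Il15ra, Il21r, Il18r1 and Il18rap) and 2 feedback inhibitors of STAT5 signalling (Cish and Socs1). They were taken by symbol from the count table, 10 of its 22865 genes, and 9 of them passed the filter on low counts that 6174 genes passed. Il2ra did not pass and is described by its counts. The samples were 3′-end bulk libraries of CD8 T cells sorted from C57BL/6 mice aged 13 months. The mice were fed CD-HFD, a choline-deficient high-fat diet used to model fatty liver disease, or the comparison diet ND. The libraries compared were liver CXCR6pos cells on CD-HFD (n = 5) and ND (n = 6), liver CXCR6neg cells on CD-HFD (n = 6) and ND (n = 4), and spleen CX3CR1neg cells on CD-HFD (n = 6) and ND (n = 5). All came from one strain, and the labels name no transgene or further treatment. CXCR6 is a chemokine receptor carried by liver-resident lymphocytes, and CX3CR1 is one carried by circulating effector T cells.

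Interleukin-7 and interleukin-15 keep memory CD8 T cells alive. Il7r pairs with the common gamma chain Il2rg to receive interleukin-7, and Il2rb pairs with the same chain to receive interleukin-2 and interleukin-15. Both receptors signal through JAK kinases to the transcription factor STAT5, which switches on Cish and Socs1, and the proteins made from these genes dampen the pathway in turn. The interleukin-18 receptor, made of Il18r1 and Il18rap, signals through MyD88 instead, and lets memory T cells make interferon gamma without antigen.

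Library totals ran from 15633 to 978896 counts, with a median of 308123. Libraries that stand apart were 2 of low depth, ND CXCR6pos replicate 1 with 15633 counts and CD-HFD CXCR6pos replicate 5 with 57168. A further 2 columns, labelled ND liver CXCR6neg and ND spleen, were identical in all 22865 genes and were left out. Cxcr6 itself went against the sort label in 2 ND libraries: ND CXCR6pos replicate 6 had 189.9 CPM (a gene's share of a library's counts, as counts per 1e+06) and ND CXCR6neg replicate 4 had 426 CPM. These were picked without a set cutoff, and ND CXCR6neg replicate 5, at 214.5 CPM, was also above ND CXCR6pos replicate 6. In CD-HFD livers Cxcr6 ran from 543 to 824 CPM in CXCR6pos cells and from 50.1 to 118 CPM in CXCR6neg cells. Levels below are CPM scaled by the trimmed mean of M-values (TMM), and a call is an edgeR quasi-likelihood adjusted p under 0.05 over the 6174 genes. All 10 genes of a CD8 T cell marker list were detected in every group. In CD-HFD CXCR6pos cells 5 of them were called higher than in ND CXCR6pos, 5 than in CD-HFD CXCR6neg and 6 than in CD-HFD spleen cells. In each case 0 were lower. The summed level of that list was 13380 to 14370 CPM in CD-HFD and 6858 to 11580 CPM in ND CXCR6pos libraries. The part of this shift in the results below was not tested. The libraries read transcript 3′ ends, so levels were not divided by transcript length. In bulk samples, fewer cells of a type and less RNA per cell cannot be told apart.

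Liver CXCR6pos cells of CD-HFD mice differed in several receptor genes from each group they were tested against. They were not tested directly against ND CXCR6neg or ND spleen cells. Against ND CXCR6pos cells, 4 of the 9 tested genes fell (Il7r, Il18r1, Il18rap and Il2rg) and 2 rose (Il21r and Il2rb). Of all genes tested 11.3% were called there, 6.45% lower and 4.84% higher. Against CXCR6neg cells of the same diet, Il7r, Il18r1 and Il18rap were lower and Il21r, Il2rb and Cish were higher, 6 of 9 beside 11.1% of all genes, of which 6.38% were lower and 4.76% higher. Against spleen cells on CD-HFD 7 of 9 were called, with 25.7% of all genes called (12.5% higher and 13.3% lower). Cish, Il21r and Il15ra were higher, and Il7r, Il18r1, Il18rap and Il2rg were lower. In the other diet comparisons none of the 9 was called, in CXCR6neg cells (0.47% of all genes) or in spleen (0.0324%). Unadjusted p-values were under 0.05 for 4 of the 9 in CXCR6neg cells, beside 524 of the 6174 genes. In spleen they were so for 1 of the 9, beside 274 genes. DESeq2 called none of the 9 in either, beside 27 genes in CXCR6neg cells and 2 in spleen. The comparison of CXCR6pos with CXCR6neg cells on ND called none of the 9, with 0.0324% of all genes called. There, 1 of the 9 had an unadjusted p under 0.05, beside 501 of the 6174 genes. DESeq2 again called none of the 9, beside 15 genes. Interactions of diet and fraction passed for 2 of 9 genes against CXCR6neg cells, with 1.44% of all genes, and for 4 of 9 against spleen, with 3.98%. The interaction of CXCR6neg cells and spleen passed for none of the 9 and for 0% of all genes, where edgeR gave 319 genes, 2 of the 9 among them, an unadjusted p under 0.05 and DESeq2 called 2 genes. The median log2 fold change of the 9 in the diet comparison of CXCR6pos cells was 0.00, as was that of all genes (-0.00).

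**Figure D1:**
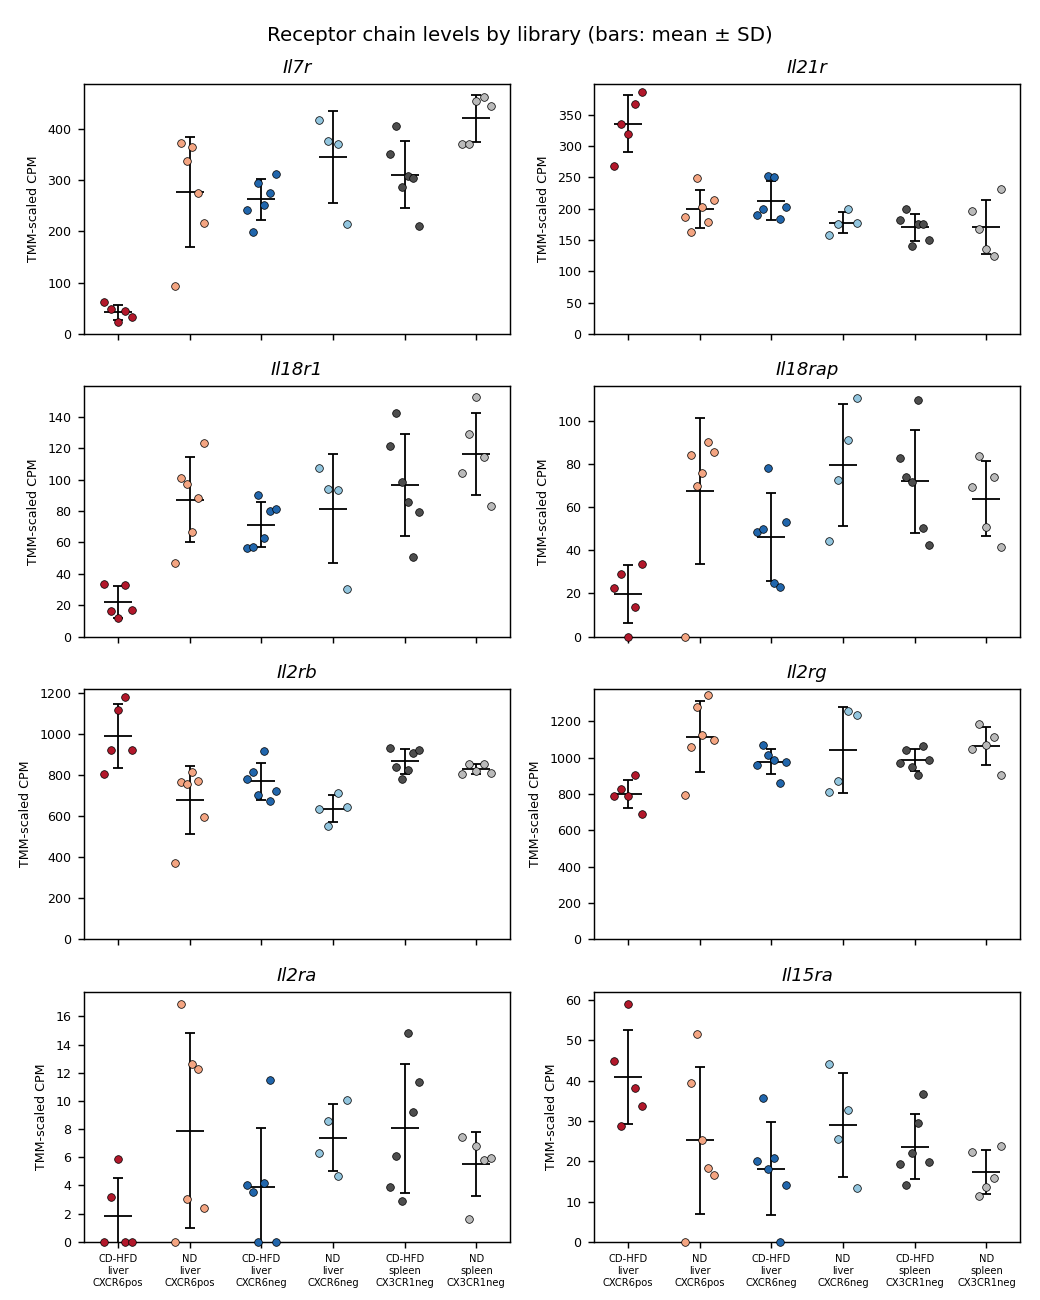
TMM-scaled CPM (linear axes) of the 8 receptor chains in each library, by group, with the mean and SD as bars (bars are cut at 0). The CD-HFD CXCR6pos libraries sit lowest for Il7r, between 23.7 and 61.6 CPM, and highest for Il21r, between 269 and 386 CPM.

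Il7r, the interleukin-7 receptor alpha chain and a mark of naive and memory T cells, showed the widest diet difference of the 9 tested genes in CXCR6pos cells. Its gene lies on chromosome 15 at 9505788 to 9530176, minus strand (GRCm38, GENCODE M21). It was at 61.6, 48.0, 23.7, 43.8 and 33.6 CPM in the 5 CD-HFD CXCR6pos libraries, against a lowest of 93.3, a median of 306 and a highest of 371 CPM in ND CXCR6pos libraries. In CD-HFD CXCR6neg libraries the lowest, median and highest were 199, 263 and 311 CPM. The ND CXCR6pos value of 93.3 CPM rests on 2 counts in the library of 15633. The CD-HFD CXCR6pos values rest on 11, 15, 4, 16 and 2 counts. Every CD-HFD CXCR6pos library was below every library of the other 5 groups. The means were 42.1 ± 14.4 CPM in CD-HFD CXCR6pos cells and 276 ± 107 CPM in ND CXCR6pos cells (SD, n = 5 and 6), 6.76-fold lower on CD-HFD. The log2 fold change was -2.76 ± 0.24 (SE; edgeR adjusted p = 5.07e-13). Against CD-HFD CXCR6neg cells it was -2.55 ± 0.25 (edgeR adjusted p = 2.18e-11). Against CD-HFD spleen cells it was -2.84 ± 0.23 (edgeR adjusted p = 1.02e-14).

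In the other cells no diet difference in Il7r was called. In CXCR6neg cells the diet difference was -0.38 ± 0.17 on the log2 scale (edgeR adjusted p = 0.52), with 262 ± 40.2 CPM on CD-HFD and 344 ± 89.1 CPM on ND (SD, n = 6 and 4). In spleen it was -0.40 ± 0.14 (edgeR adjusted p = 0.901), with 310.5 ± 65.0 CPM on CD-HFD and 419.8 ± 45.8 CPM on ND (SD, n = 6 and 5). The diet difference in CXCR6pos cells exceeded that in CXCR6neg cells by -2.38 ± 0.31 (interaction, edgeR adjusted p = 4.83e-07) and that in spleen by -2.36 ± 0.29 (interaction, edgeR adjusted p = 5.65e-08). On ND, CXCR6pos cells were 1.39-fold below spleen cells (log2 fold change -0.48 ± 0.15, edgeR adjusted p = 0.0204). That last call was lost without ND CXCR6pos replicate 6, whose Cxcr6 went against its label (-0.37, edgeR adjusted p = 0.074). It was also lost without ND CXCR6pos replicate 5 (adjusted p = 0.0602) or ND spleen replicate 3 (0.0504) or 4 (0.0655), from edgeR in each case. By mean, Il7r ran in the order ND spleen, ND CXCR6neg, CD-HFD spleen, ND CXCR6pos, CD-HFD CXCR6neg and CD-HFD CXCR6pos. Each neighbouring pair in that order overlapped except the last, CD-HFD CXCR6neg and CD-HFD CXCR6pos.

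Markers of other cells moved beside this gene. Of 10 plasmacytoid dendritic cell genes, 10 were lower in CD-HFD CXCR6pos than in CD-HFD CXCR6neg libraries, with summed levels of 151 to 213 CPM and 1010 to 1660 CPM. Siglech, a defining gene of those cells, had 2 counts over the 5 CD-HFD CXCR6pos libraries and 230 over the 6 CD-HFD CXCR6neg libraries. In the diet comparison of CXCR6pos cells 0 of the 10 were called. Summed levels of that list were 129 to 1239 CPM in ND CXCR6pos libraries. Between CXCR6pos and CXCR6neg cells on CD-HFD, 3 of 5 tested B cell genes were also lower. In that comparison 2 of 5 tested CD4 and regulatory T cell genes were higher. So were 2 of 4 tested gamma delta and unconventional T cell genes. The part of all these cells in the CXCR6pos to CXCR6neg difference was not tested. Of a CD4 and regulatory T cell list, 5 of 5 tested genes were higher on CD-HFD in CXCR6pos cells, among them Ctla4. In CXCR6neg cells 3 of those 5 were higher on CD-HFD as well (Ikzf2, Tnfrsf18 and Tnfrsf4). The interaction of diet and these fractions called 0 of the 5. The summed level of that list was 646 to 1219 CPM in CD-HFD and 187 to 362 CPM in ND CXCR6pos libraries. Its defining genes Foxp3 and Cd4 had 1 count each over the 5 CD-HFD CXCR6pos libraries, and 0 and 2 counts over the 6 ND CXCR6pos libraries. Of 10 genes of gamma delta and other unconventional T cells 4 were tested, and all 4 were called in the diet comparison of CXCR6pos cells. Tcrg-C2 and Tcrg-C4 were higher on CD-HFD, and Tcrg-C1 and Trdc were lower. The summed level of that list was 336 to 1170 CPM in CD-HFD and 130.5 to 569 CPM in ND CXCR6pos libraries. The defining gene Trdc had 2 counts in CD-HFD and 108 in ND CXCR6pos libraries. The part of these cells in the diet differences was not tested.

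Il2rb, the beta chain shared by the interleukin-2 and interleukin-15 receptors (chromosome 15 at 78479256 to 78495271), moved the opposite way and by far less. It was at 806, 922, 1118, 1179 and 924 CPM in CD-HFD CXCR6pos libraries, against a lowest of 373, a median of 761 and a highest of 813 CPM in ND CXCR6pos libraries. The lowest CD-HFD library, at 806 CPM, fell below the highest ND library, so the groups overlapped. The means were 989.7 ± 154 CPM in CD-HFD CXCR6pos cells and 678 ± 168 CPM in ND CXCR6pos cells (SD, n = 5 and 6). The log2 fold change was 0.47 ± 0.11 (edgeR adjusted p = 0.000823), a 1.38-fold rise. Against CD-HFD CXCR6neg cells, which averaged 769.7 ± 89.2 CPM (SD, n = 6), it was 0.36 ± 0.11 (edgeR adjusted p = 0.014). That call was lost without CD-HFD CXCR6pos replicate 3 (edgeR adjusted p = 0.0603) or 4 (edgeR adjusted p = 0.134), and with no filter on low counts (edgeR adjusted p = 0.132). Against CD-HFD spleen, at 867 ± 61.0 CPM (SD, n = 6), the difference was 0.20 ± 0.10 and missed the threshold (edgeR adjusted p = 0.155), with an approximate 95% interval from -0.00 to 0.40. It passed without CD-HFD CXCR6pos replicate 1 (0.28, edgeR adjusted p = 0.0437). The interaction of diet and fraction for Il2rb was 0.19 ± 0.16 against CXCR6neg cells (edgeR adjusted p = 0.752). Against spleen it was 0.41 ± 0.15 (edgeR adjusted p = 0.113), and it passed without CD-HFD CXCR6pos replicate 1 (0.48, edgeR adjusted p = 0.0461).

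Il7r and Il2rb pair with the same gamma chain, and their counts were set against each other within each library. There were 0.0371 counts of Il7r per Il2rb count at the median of CD-HFD CXCR6pos libraries, within 0.0212 to 0.0764. These ratios rest on 11, 15, 4, 16 and 2 counts of Il7r. The median was 0.405 in ND CXCR6pos libraries, within 0.25 to 0.485. In the other 4 groups the medians lay between 0.358 and 0.59, and the lowest single library was at 0.228. The ratio needs no scaling between libraries, and no CD-HFD CXCR6pos library reached the range of another group.

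**Figure D2:**
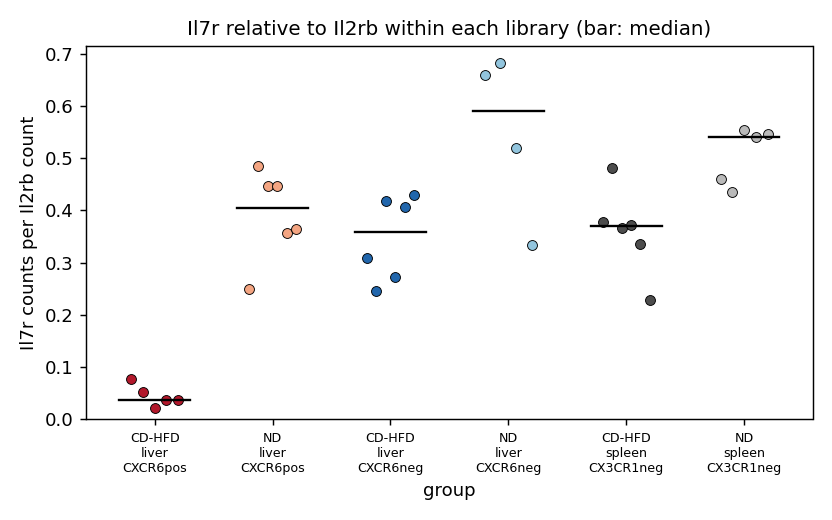
Il7r counts per Il2rb count in each library (linear axis), by group, with the group median as a bar. The 5 CD-HFD CXCR6pos libraries lie between 0.0212 and 0.0764, below all libraries of the other groups.

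Il2rg, the common gamma chain (chromosome X at 101264378 to 101268255, where the annotation also places the overlapping gene Gm20489), fell modestly. It was at 789, 829, 787, 902 and 689 CPM in CD-HFD CXCR6pos libraries, against a lowest of 793, a median of 1111 and a highest of 1345 CPM in ND CXCR6pos libraries. The groups overlapped, with the lowest ND value in the library of 15633 counts. Means were 799 ± 77.3 CPM on CD-HFD and 1116 ± 193 CPM on ND (SD, n = 5 and 6), a log2 fold change of -0.52 ± 0.11 (edgeR adjusted p = 0.000176). Without the 2 libraries of low depth it was -0.52 (edgeR adjusted p = 0.000159). Against CD-HFD CXCR6neg cells, at 977 ± 69.4 CPM (SD, n = 6), the difference of -0.27 ± 0.11 missed the threshold (edgeR adjusted p = 0.0893). With only the compared groups fitted, this difference passed narrowly, without a block (edgeR adjusted p = 0.047) and with one (edgeR adjusted p = 0.048). Against CD-HFD spleen it was -0.28 ± 0.11 (edgeR adjusted p = 0.0359), a call that was lost when any of 8 single libraries was left out (edgeR adjusted p 0.0507 to 0.0851). DESeq2 did not call it either (adjusted p = 0.0527), nor did edgeR without the libraries of low depth (adjusted p = 0.0558).

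Il15ra, the chain that binds and presents interleukin-15, was at 44.8, 28.8, 59.1, 38.3 and 33.6 CPM in CD-HFD CXCR6pos libraries. In CD-HFD spleen libraries its lowest, median and highest were 14.2, 20.9 and 36.8 CPM. The groups overlapped, and the difference of 0.89 ± 0.34 on the log2 scale passed the threshold narrowly (edgeR adjusted p = 0.0396). The call was lost when any of 5 single libraries was left out (edgeR adjusted p 0.0665 to 0.144), with no filter on low counts (edgeR adjusted p = 0.133) and with DESeq2 (adjusted p = 0.0602). Against ND CXCR6pos cells the difference was 0.52 ± 0.36 (edgeR adjusted p = 0.439), and against CD-HFD CXCR6neg cells 0.97 ± 0.39 (edgeR adjusted p = 0.0976). The latter passed without CD-HFD CXCR6neg replicate 2 (1.27, edgeR adjusted p = 0.0397). These differences rest on 43 counts over the 5 CD-HFD CXCR6pos libraries, 48 over ND CXCR6pos and 28 over CD-HFD CXCR6neg.

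Il2ra, the alpha chain that gives the interleukin-2 receptor its high affinity and marks regulatory and recently activated T cells, was close to the detection limit everywhere. It had 2 counts of 1097951 in CD-HFD CXCR6pos libraries, or 1.82 CPM with an exact 95% Poisson interval of 0.221 to 6.58 CPM. In ND CXCR6pos libraries it had 15 counts of 1762053, or 8.51 CPM with an interval of 4.76 to 14.0 CPM. The intervals overlap and cover counting error only. It was at 0 in 3 of 5 CD-HFD CXCR6pos libraries. In CD-HFD CXCR6neg libraries 4 counts were found, in ND CXCR6neg 8, in CD-HFD spleen 22 and in ND spleen 11, so no group exceeded 8.51 CPM when its libraries were pooled. Gm37881, which overlaps Il2ra on the same strand, had 9 counts in all libraries used.

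Il21r, the receptor for interleukin-21, a cytokine that sustains CD8 T cells in chronic responses, rose in CD-HFD CXCR6pos cells (chromosome 7 at 125603429 to 125633570). It was at 269, 336, 319, 366 and 386 CPM in CD-HFD CXCR6pos libraries, against a lowest of 163, a median of 194 and a highest of 249 CPM in ND CXCR6pos libraries. In CD-HFD CXCR6neg libraries the lowest, median and highest were 183, 201 and 252 CPM. The CD-HFD CXCR6pos libraries lay above every library of all other groups. Means were 335 ± 45.5 CPM in CD-HFD CXCR6pos cells and 199 ± 30.4 CPM in ND CXCR6pos cells (SD, n = 5 and 6), a 1.64-fold rise. The log2 fold change was 0.71 ± 0.14 (edgeR adjusted p = 4.81e-05). Against CD-HFD CXCR6neg cells it was 0.64 ± 0.14 (edgeR adjusted p = 0.000413) and against CD-HFD spleen 0.95 ± 0.13 (edgeR adjusted p = 2.02e-09). In CXCR6neg cells the diet difference was 0.24 ± 0.16 (edgeR adjusted p = 0.75), and in spleen 0.07 ± 0.13 (edgeR adjusted p = 1). The interaction missed the threshold against CXCR6neg cells (0.48 ± 0.21, edgeR adjusted p = 0.337). Against spleen it passed (0.64 ± 0.19, edgeR adjusted p = 0.0308) but was lost when any of 7 single libraries was left out (edgeR adjusted p 0.0568 to 0.0993). It was also lost with DESeq2 (adjusted p = 0.0549) and with no filter on low counts (edgeR adjusted p = 0.249).

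Of the 9 tested genes, 3 had CD-HFD and ND CXCR6pos libraries that did not overlap (Il7r, Il18r1 and Il21r), beside 4.52% of all genes. The lowest ND values of Il7r and Il18r1, 93.3 and 46.6 CPM, rest on 2 counts and 1 count. Between CXCR6pos and CXCR6neg cells on CD-HFD 4 of 9 did not overlap, those 3 and Cish, beside 6.84% of all genes. Between CXCR6pos and spleen cells on CD-HFD 6 of 9 did not overlap, beside 14.7% of all genes.

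**Figure D3:**
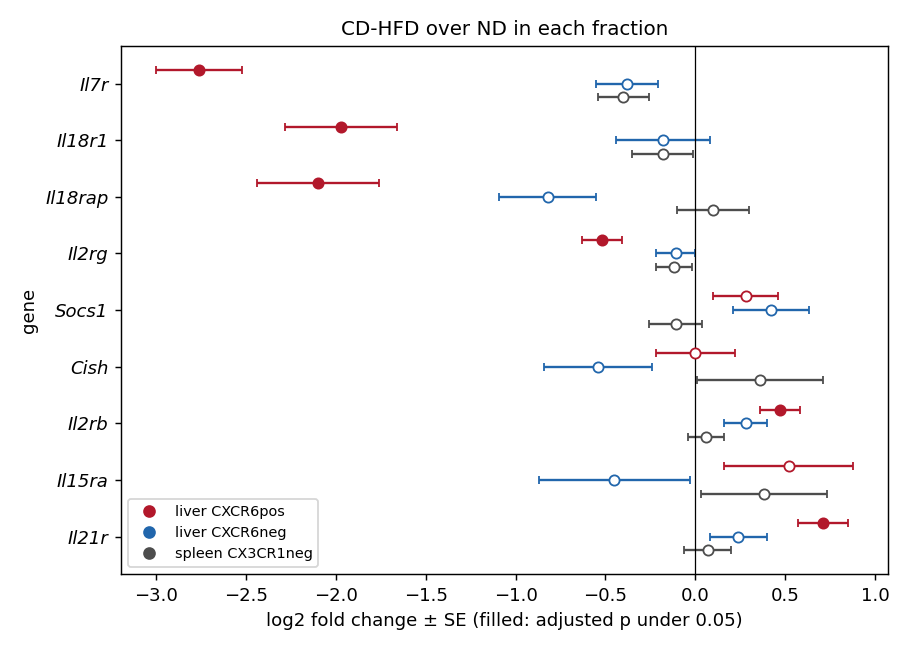
Log2 fold change of CD-HFD over ND (x axis, ± SE) for the 9 tested genes in liver CXCR6pos, liver CXCR6neg and spleen CX3CR1neg cells, filled where the edgeR adjusted p was under 0.05. Filled points occur only in CXCR6pos cells, from -2.76 for Il7r to 0.71 for Il21r.

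Both chains of the interleukin-18 receptor fell in CD-HFD CXCR6pos cells. The 2 genes are neighbours on chromosome 1, plus strand, Il18r1 at 40465552 to 40500854 and Il18rap at 40515362 to 40551705. Il18r1, the ligand-binding chain, was at 33.6, 16.0, 11.8, 32.8 and 16.8 CPM in CD-HFD CXCR6pos libraries. In ND CXCR6pos libraries its lowest, median and highest were 46.6, 92.8 and 123 CPM, and in CD-HFD CXCR6neg libraries 56.5, 71.4 and 90.1 CPM. Neither of those groups overlapped with CD-HFD CXCR6pos. The ND CXCR6pos value of 46.6 CPM rests on 1 count in the library of 15633. The CD-HFD CXCR6pos values rest on 6, 5, 2, 12 and 1 counts. The means were 22.2 ± 10.2 CPM in CD-HFD CXCR6pos cells and 87.2 ± 27.2 CPM in ND CXCR6pos cells (SD, n = 5 and 6), 3.93-fold lower on CD-HFD. The log2 fold change was -1.97 ± 0.31 (edgeR adjusted p = 5.73e-07). Against CD-HFD CXCR6neg cells it was -1.53 ± 0.34 (edgeR adjusted p = 0.000456).

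Il18rap, the accessory chain that signalling needs, was at 22.4, 28.8, 0, 13.7 and 33.6 CPM in CD-HFD CXCR6pos libraries. In ND CXCR6pos libraries the lowest, median and highest were 0, 80.1 and 90.2 CPM, and the 0 was in the library of 15633 counts. That library alone made the 2 groups overlap. The means were 19.7 ± 13.3 CPM on CD-HFD and 67.6 ± 33.9 CPM on ND (SD, n = 5 and 6), 4.29-fold lower by the fit (log2 fold change -2.10 ± 0.34, edgeR adjusted p = 6.68e-07). Without the 2 libraries of low depth it was -2.20 (edgeR adjusted p = 8.11e-07). Against CD-HFD CXCR6neg cells, at 46.3 ± 20.4 CPM (SD, n = 6), it was -1.36 ± 0.38 (edgeR adjusted p = 0.00831). That call was lost without CD-HFD CXCR6pos replicate 4 (edgeR adjusted p = 0.0578).

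Natural killer cells also carry this receptor. Of 10 of their marker genes 5 were tested, and 4 of those (Fcer1g, Klra9, Klrb1c and Tyrobp) were lower on CD-HFD in CXCR6pos cells. Against CD-HFD CXCR6neg cells 3 of the 5 were lower (Fcer1g, Klra9 and Tyrobp) and 1 was higher (Cd7). The summed level of that list was 781 to 1210 CPM in CD-HFD and 466.5 to 1553 CPM in ND CXCR6pos libraries, with the defining gene Ncr1 at 0 in both groups. The part of such cells in the result was not tested.

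The diet difference in CXCR6pos cells exceeded that in spleen for both chains, by -1.79 ± 0.36 for Il18r1 (interaction, edgeR adjusted p = 0.00044) and by -2.21 ± 0.40 for Il18rap (interaction, edgeR adjusted p = 5.92e-05). Against CXCR6neg cells it did so for Il18r1 (-1.80 ± 0.41, edgeR adjusted p = 0.0064). For Il18rap the value of -1.28 ± 0.45 missed the threshold (edgeR adjusted p = 0.168). In CXCR6neg cells Il18rap averaged 46.3 ± 20.4 CPM on CD-HFD and 79.7 ± 28.3 CPM on ND (SD, n = 6 and 4), a log2 difference of -0.82 ± 0.27 that did not pass (edgeR adjusted p = 0.193). CD-HFD CXCR6neg cells had less Il18r1 than CD-HFD spleen cells by -0.59 ± 0.20 (edgeR adjusted p = 0.0472), with 10.4% of all genes called there. DESeq2 did not call it (adjusted p = 0.204), nor did edgeR when any of 8 single libraries was left out (adjusted p 0.0561 to 0.259).

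Cish, an SH2-domain protein induced by STAT5 that restrains interleukin-2 and T cell receptor signalling, differed by tissue and fraction (chromosome 9 at 107296026 to 107302784, plus strand). It was at 123, 134, 136, 123 and 118 CPM in CD-HFD CXCR6pos libraries, against a lowest of 0, a median of 119 and a highest of 170.3 CPM in ND CXCR6pos libraries. Its diet difference in CXCR6pos cells was 0.00 ± 0.22 (edgeR adjusted p = 0.999), with an approximate 95% interval from -0.44 to 0.44 on the log2 scale. The single 0 was again in the library of 15633 counts, and without the libraries of low depth the difference in Cish was -0.02. In CD-HFD CXCR6neg libraries the lowest, median and highest were 0, 47.3 and 67.7 CPM, all below CD-HFD CXCR6pos. The log2 fold change of CXCR6pos over CXCR6neg cells was 1.40 ± 0.27 on CD-HFD (edgeR adjusted p = 6.86e-05), 2.64-fold.

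On ND the same contrast gave 0.86 ± 0.25 and was not called (edgeR adjusted p = 0.208). Cish was at 12.6, 42.8, 91.3 and 101 CPM in the 4 ND CXCR6neg libraries, so it spanned most of the range between spleen and CXCR6pos cells. Without the 2 ND libraries whose Cxcr6 went against the label it was 1.2 (edgeR adjusted p = 0.0159), and without ND CXCR6pos replicate 6 alone it was 0.96 (edgeR adjusted p = 0.0367). The 2 were picked by Cxcr6 in these data, with no set cutoff, so the first run is not an independent test of the contrast. The interaction between diet and fraction for Cish was 0.54 ± 0.37 (edgeR adjusted p = 0.649). Plasmacytoid dendritic cell genes were higher in CXCR6neg libraries on CD-HFD, and markers of other cells differed too, as given above. The part of these cells in the Cish difference was not tested.

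Cish was lowest in spleen, and each liver fraction exceeded the spleen cells of its own diet. Spleen libraries had a lowest of 15.2, a median of 23.1 and a highest of 41.4 CPM on CD-HFD. On ND the 5 spleen libraries had 12.4, 14.5, 20.3, 17.4 and 23.7 CPM. CXCR6pos cells exceeded spleen by 2.56 ± 0.27 on CD-HFD (edgeR adjusted p = 6.37e-13), 5.88-fold. On ND they did so by 2.91 ± 0.28 (edgeR adjusted p = 6e-14), 7.52-fold, where 2 of 9 genes (Cish and Il7r) and 14.4% of all genes were called. CXCR6neg cells exceeded spleen by 1.16 ± 0.31 on CD-HFD (edgeR adjusted p = 0.00537) and by 2.05 ± 0.34 on ND (edgeR adjusted p = 4e-06). In the ND comparison of CXCR6neg cells with spleen the second call of the 9 was Il2rb, lower in CXCR6neg cells (-0.38 ± 0.12, edgeR adjusted p = 0.0268), and 6.87% of all genes were called. CXCR6neg Il2rb on ND was 632, 551, 712 and 644 CPM, against 803, 853, 819.8, 852 and 811 CPM in ND spleen, with no overlap. That 1 of 9 stood beside 8.91% of all genes without overlap, and the call was lost when any of 4 single libraries was left out (edgeR adjusted p 0.0538 to 0.131).

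Markers of several other cell types moved beside these differences between liver and spleen. Of 10 B cell genes 5 were tested, and in CXCR6pos cells 4 were lower than in spleen on CD-HFD and 3 on ND. In CXCR6neg cells 3 were lower and 1 higher on CD-HFD, and 2 lower and 1 higher on ND. The summed level of that list was 219 to 710 CPM in CXCR6pos, 1171 to 1457 CPM in CXCR6neg and 2652 to 3808 CPM in spleen libraries on CD-HFD. On ND it was 246 to 1244 CPM in CXCR6pos, 784 to 1421 CPM in CXCR6neg and 2055 to 2835 CPM in spleen libraries. The defining gene Cd79a had 7 counts or fewer in each group and was at 0 in both CXCR6neg groups. Plasmacytoid dendritic cell genes were higher in CXCR6neg than in spleen cells for 9 of 10 on CD-HFD and 7 of 10 on ND. Of 5 tested CD4 and regulatory T cell genes, 5 were higher in CXCR6pos than in spleen cells on CD-HFD. In CXCR6neg cells 4 of those 5 were higher than in spleen on CD-HFD. On ND 0 were called in either liver fraction. Of 4 tested gamma delta and unconventional T cell genes, 2 were higher than in spleen in CXCR6pos cells on CD-HFD and 3 on ND. Of 2 tested innate lymphoid cell genes, 2 were higher in CXCR6pos and 1 in CXCR6neg cells on each diet. Of 5 tested natural killer cell genes, 1 was higher and 3 lower in CXCR6pos cells on CD-HFD. In the remaining liver to spleen comparisons 2 of those 5 were higher. Lyz2, a macrophage gene, was lower in both liver fractions. The part of these cells in the liver to spleen differences was not tested.

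By mean, Cish ran in the order CD-HFD CXCR6pos, ND CXCR6pos, ND CXCR6neg, CD-HFD CXCR6neg, CD-HFD spleen and ND spleen, and every neighbouring pair overlapped. The gain over spleen on ND was not called different from that on CD-HFD, in CXCR6pos cells (interaction -0.35 ± 0.41, edgeR adjusted p = 0.792) or in CXCR6neg cells (-0.90 ± 0.46, edgeR adjusted p = 0.936). With the identical library kept among ND CXCR6neg libraries, the CXCR6neg to spleen difference on CD-HFD stayed at 1.16 but was not called (edgeR adjusted p = 0.0703). The annotation places Gm17040 and Gm17041 on the opposite strand of Cish, and these had 2 and 0 counts in all libraries used.

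**Figure D4:**
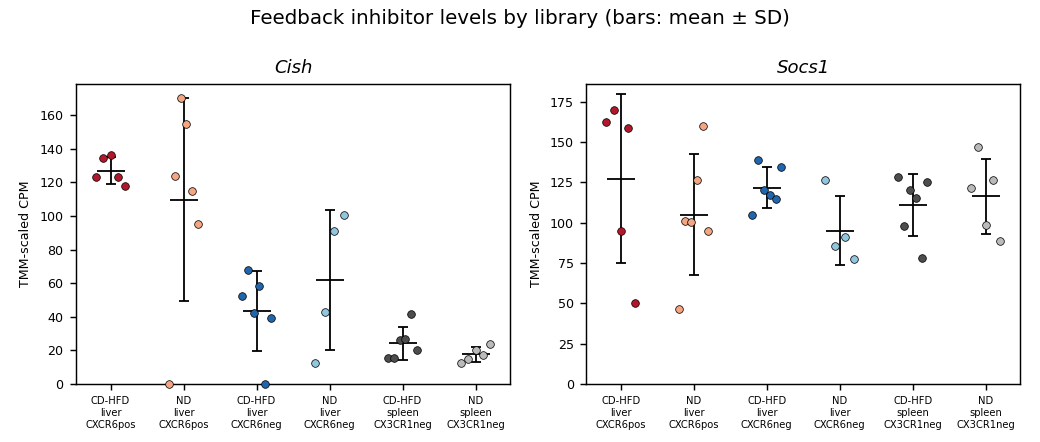
TMM-scaled CPM (linear axes) of Cish and Socs1 in each library, by group, with the mean and SD as bars. Cish lies between 118 and 136 CPM in CD-HFD CXCR6pos libraries and between 12.4 and 41.4 CPM in spleen libraries, while Socs1 overlaps between all groups.

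Socs1, which binds and inhibits JAK kinases and limits interferon gamma and gamma-chain cytokine signals, was not called in any comparison. It was at 162, 169.6, 94.7, 159 and 50.4 CPM in CD-HFD CXCR6pos libraries, against a lowest of 46.6, a median of 101 and a highest of 159.9 CPM in ND CXCR6pos libraries. The low values of both groups were in their shallowest library. Group means ran from 95.1 ± 21.7 CPM in ND CXCR6neg cells (SD, n = 4) to 127 ± 52.4 CPM in CD-HFD CXCR6pos cells (SD, n = 5). The diet difference in CXCR6pos cells was 0.28 ± 0.18 (edgeR adjusted p = 0.406), with an approximate 95% interval from -0.08 to 0.63. CXCR6pos cells exceeded spleen on CD-HFD by 2.56 for Cish, while the value for Socs1 was 0.34 ± 0.17 (edgeR adjusted p = 0.138).

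**Figure D5:**
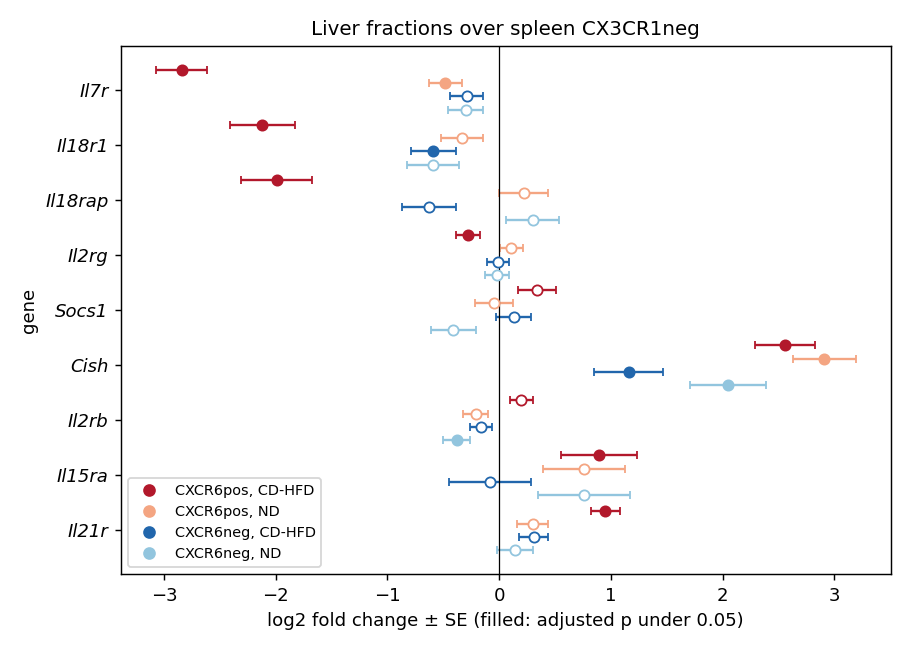
Log2 fold change of liver CXCR6pos and CXCR6neg cells over spleen CX3CR1neg cells (x axis, ± SE) on each diet for the 9 tested genes, filled where the edgeR adjusted p was under 0.05. Cish is filled in all 4 comparisons, from 1.16 to 2.91, and Il7r is lowest in CXCR6pos cells on CD-HFD, at -2.84.

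STAT5 binds the palindrome TTCNNNGAA, and the RefSeq promoter windows (GRCm38.p6, 250 bases before to 50 after a start) were searched for it. The palindrome reads the same on both strands, and it occurs in 8.3% of 32851 windows. Of the 10 genes 9 had a window (Il2rb had none), and 3 held the motif: Cish, Il7r and Il18r1. Cish held it at positions 1 to 9 and 12 to 20, counted from 1 at the RefSeq start. Of all windows 0.457% held 2 or more. Socs1, Il18rap and Il2rg held none. The windows were also searched, on both strands, for TGTGGT (RUNX factors), found in 5 of the 9 genes (Il7r, Il2rg, Il18r1, Il18rap and Il21r) and 16.8% of all windows. CTTTGA (TCF factors) was found in 3 (Il15ra, Il18rap and Cish) and 16% of windows, and TGTTTAC (FOXO factors) in 1 (Il21r) and 3.65%. The shares are of windows and the counts are of genes. Il18r1 had 3 windows and Il15ra had 2, so the 2 are not on the same base. The STAT-type sites of the 3 genes are shown because gamma-chain receptors signal through STAT5. Each line gives the site with its flanks, 5′ to 3′ on the gene's strand, with the motif in capitals.
Cish, chr9:107296654-107296683, plus strand: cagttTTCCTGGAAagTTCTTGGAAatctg
Il7r, chr15:9530000-9530028, minus strand: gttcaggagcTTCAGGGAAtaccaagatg
Il18r1, chr1:40465777-40465805, plus strand: tcggggttagTTCTGGGAActgtggagct
Il18r1, chr1:40465844-40465872, plus strand: agtacaggtcTTCCCAGAActgaaagctt
The Il7r match lies 142 to 134 bases before the RefSeq start of its window. Both Il18r1 matches lie before the RefSeq start of 1 of its 3 windows, at 219 to 211 and 152 to 144 bases. The RefSeq starts of these windows differ from the GENCODE gene ends given above, and all 4 sequences lie inside the genes as GENCODE places them. On CD-HFD, Cish was higher in CXCR6pos than in CXCR6neg cells, and Il7r and Il18r1 were lower. A match describes letters in a window and does not show binding in these cells.

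Likeness was described by Pearson's r of log2 CPM over the 32 libraries, which share groups and differ in depth. Il7r was most like Ly6c2, a surface antigen of memory CD8 T cells (r = 0.92, and 0.93 without the 2 libraries of low depth), Tmsb10, an actin-binding thymosin (0.92, and 0.89), and S1pr1, the receptor for exit from tissue (0.90, and 0.88). The gene most like Il18r1 was Il7r itself (r = 0.89, and 0.87). Il21r was most like the chemokine Ccl5 (0.80, and 0.76), and Cish most like the inhibitory receptor gene Lilr4b (0.90, and 0.88) and the integrin Itgal (0.86, and 0.83). For Socs1 the highest was Adprm at 0.78, which fell to 0.47 without the 2 libraries. Between Il7r and Il21r r was -0.77.

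Downstream of these receptors, of 9 tested JAK and STAT genes 2 rose with CD-HFD in CXCR6pos cells and none fell, with a median log2 fold change of 0.04 beside -0.00 for all genes. Stat3, used by the interleukin-21 and interleukin-10 receptors, averaged 198 ± 65.1 CPM on CD-HFD and 104 ± 11 CPM on ND (SD, n = 5 and 6), a log2 fold change of 1.04 ± 0.17 (edgeR adjusted p = 6.63e-07). Jak3, the kinase bound to Il2rg, rose by 0.82 ± 0.28 (edgeR adjusted p = 0.0395). Stat5a was at 17.3 ± 1.2 CPM on CD-HFD and 29.6 ± 17.4 CPM on ND and was not called, and Stat5b was too low to test, at 17.0 ± 8.32 and 18.3 ± 11.5 CPM in the same groups (SD, n = 5 and 6).

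Of 9 tested chains of related cytokine receptors, 2 rose and 3 fell with CD-HFD in CXCR6pos cells (median -0.08). Il10ra, the interleukin-10 receptor, rose by 1.37 ± 0.19 (edgeR adjusted p = 4.41e-09), and Crlf2, a chain of the TSLP receptor, by 0.72 ± 0.22 (edgeR adjusted p = 0.0159). Ifngr1, the interferon gamma receptor, fell by 0.71 on the log2 scale (SE 0.12, edgeR adjusted p = 4.79e-06), and Il6ra, the interleukin-6 receptor, also fell (-2.26 ± 0.57, edgeR adjusted p = 0.00703). The mRNAs of 8 cytokines that these receptors read, Il2, Il7 and Il15 among them, were all too low to test. Il2 had 0 counts in CD-HFD CXCR6pos libraries, which allows up to 3 counts of 1097951, and 31 counts in ND CXCR6pos libraries.

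Of 12 other tested inhibitors of JAK-STAT signalling, 3 rose and 1 fell with CD-HFD in CXCR6pos cells (median 0.12). The phosphatase gene Ptpn11 rose by 1.33 ± 0.25 (edgeR adjusted p = 2.56e-05), the ubiquitin ligase gene Cblb by 1.19 ± 0.23 (edgeR adjusted p = 4.51e-05) and the phosphatase gene Ptpn1 by 0.60 ± 0.16 (edgeR adjusted p = 0.00412). Ptpn6, which encodes the phosphatase SHP-1, fell by 0.84 (SE 0.15, edgeR adjusted p = 1.53e-05). Socs3, which blocks receptors of the interleukin-6 family, shared with Cish the difference between liver and spleen. It exceeded spleen by 1.45 ± 0.18 in CXCR6pos and 1.77 ± 0.17 in CXCR6neg cells on CD-HFD (edgeR adjusted p = 7.8e-10 and 2.24e-14). On ND the values were 0.89 ± 0.19 and 1.06 ± 0.21 (edgeR adjusted p = 0.000312 and 0.000118).

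Known targets of interleukin-2, interleukin-15 and STAT5 went both ways. Of 18 tested, 6 rose and 5 fell with CD-HFD in CXCR6pos cells (median 0.14). Prdm1, which encodes the repressor Blimp-1, rose by 2.06 ± 0.31 (edgeR adjusted p = 1.78e-07), the costimulatory receptor gene Tnfrsf9 by 2.80 ± 0.44 (edgeR adjusted p = 7.44e-06) and perforin, Prf1, by 0.75 ± 0.14 (edgeR adjusted p = 3.33e-05). Pim1, a survival kinase, fell by 1.32 (SE 0.22, edgeR adjusted p = 2.65e-06), with 56.1 ± 6.82 CPM on CD-HFD and 147 ± 19.1 CPM on ND (SD, n = 5 and 6). Bcl2, the survival gene that interleukin-7 maintains, was at 318 ± 69.7 CPM on CD-HFD and 326 ± 47.9 CPM on ND in the same cells and was not called.

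Of 10 tested genes that encode regulators of Il7r, 2 rose and 3 fell with CD-HFD in CXCR6pos cells (median -0.47). Among those that fell were Klf2 (by 1.45, SE 0.12, edgeR adjusted p = 2.66e-19) and Tcf7 (by 2.05, SE 0.20, edgeR adjusted p = 8.97e-15), factors of quiescent and memory T cells, and Tbx21 (by 0.82, SE 0.16, edgeR adjusted p = 9.7e-05). Prdm1, given above, was among those that rose (by 2.06 ± 0.31, edgeR adjusted p = 1.78e-07). Klf2 and Tcf7 also had an interaction between diet and fraction against CXCR6neg cells, of -0.99 ± 0.16 and -1.94 ± 0.26 (edgeR adjusted p = 1.05e-05 and 1.71e-08). Klf2 fell with CD-HFD in CXCR6neg cells too (-0.45 ± 0.11, edgeR adjusted p = 0.0177), where Il7r was not called. On ND, CXCR6pos cells exceeded spleen for Klf2 (1.03 ± 0.11, edgeR adjusted p = 5e-14). In that comparison Tcf7 (-0.67 ± 0.13, edgeR adjusted p = 4.78e-05) and Il7r were lower. Of 7 tested genes of the interleukin-18 pathway, 1 rose and 1 fell with CD-HFD in CXCR6pos cells (median -0.26). Casp1, the protease that matures interleukin-18, rose by 0.64 ± 0.21 (edgeR adjusted p = 0.0313) and Gadd45b fell by 0.66 (SE 0.20, edgeR adjusted p = 0.0174). Myd88, the adaptor, was at 61.8 ± 30.9 CPM on CD-HFD and 69.2 ± 18 CPM on ND (SD, n = 5 and 6) and was not called.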

How the data were processed

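The authors deposited 1 table of raw whole-number counts by gene symbol, with a column per library. Per the labels' protocols, the cells were sorted into a lysis buffer and their poly(A) RNA became barcoded 3′-end libraries carrying unique molecular identifiers. Per the submitters' processing notes, the reads went to build GRCm38.p6, and the notes also list DESeq2 1.14.1. No aligner, counter, gene annotation or strand setting is named, and whether reads or molecules were counted is not given in the sources used here. Genes that overlap a member can therefore share its counts.

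Groups came from the sample labels. Of 35 samples, 34 had a matching column. Values of 1 other column matched no sample and were used in no step, and CD-HFD CXCR6pos replicate 6 was not analysed here. The 2 identical columns carry labels of different groups, so both were left out, and 32 libraries were used. Nothing in the labels says that replicates are separate mice, so the p-values reflect variation among these libraries, which may be technical. Same-numbered libraries did not deviate together (correlations of deviations from -0.062 to 0.084), so the fit has no block.

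Genes were kept by filterByExpr by group (6174 genes) and libraries scaled by TMM. The quasi-likelihood test of edgeR 4.0.16 (R 4.3.3) was run with all 6 groups in 1 robust fit, with Benjamini-Hochberg adjustment over all tested genes. A standard error is the log2 fold change divided by the square root of F, and approximate 95% intervals rest on it. Intervals of counts cover counting error only. The scripts were tested on simulated data. DESeq2 1.42.0, other filters and scalings, left-out libraries and a block were tried as alternatives. Likeness was computed on log2 CPM (prior count 2), and its values without the libraries of low depth (under 0.2 times the median total) were added after seeing the data. All 10 members were named in every comparison. Of each pathway list the counts are given, with up to 4 called genes of smallest p. Stat5a, Stat5b, Bcl2, Myd88, Il2 and the marker genes were named for their role, outside that rule. Likeness took the 3 genes of highest r, without predicted models, pseudogenes and receptor segments, and some are not printed. Members and lists were chosen with earlier results of these data known. Coordinates are 1-based, from GENCODE M21 on GRCm38 for genes and from the RefSeq promoter table for sites.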

Additional observations from a re-analysis of the deposited data

Results flagged for a closer look

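A diet difference that differed between fractions was found by an interaction term for 4 genes. Against CXCR6neg cells it was -2.38 for Il7r and -1.80 for Il18r1 on the log2 scale (edgeR adjusted p = 4.83e-07 and 0.0064). Against spleen it was -2.36 for Il7r, -1.79 for Il18r1, -2.21 for Il18rap and 0.64 for Il21r (edgeR adjusted p = 5.65e-08, 0.00044, 5.92e-05 and 0.0308). The Il21r call was lost with DESeq2 (adjusted p = 0.0549), with no filter on low counts (0.249, edgeR) and when any of 7 single libraries was left out (0.0568 to 0.0993, edgeR). Of all genes, 1.44% had such an interaction against CXCR6neg cells and 3.98% against spleen.

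Single libraries far from the rest of their group occurred in 3 of 60 groups of values, where chance gives about 1 in 20. Il2ra was at 11.4 CPM in CD-HFD CXCR6neg replicate 5 and at 1.61 CPM in ND spleen replicate 2, each a value of few counts. Il18rap was at 0 in ND CXCR6pos replicate 1, the library of 15633 counts.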

How the results depend on the processing

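Of the results for single members under an alternative, 2424 kept their side of the threshold, 60 lost and 10 gained the call, and none reversed. Calls for Il7r, Il18r1, Il18rap, Il21r, Il2rb and Il2rg in the diet comparison of CXCR6pos cells held in every alternative run. Leaving out single libraries gave 6 called members there, 4 to 7 between CXCR6pos and CXCR6neg cells on CD-HFD and 0 to 1 on ND. It gave 5 to 7 between CXCR6pos and spleen cells on CD-HFD and 1 to 2 on ND, and 1 to 3 and 1 to 2 for CXCR6neg cells against spleen. The diet comparisons of CXCR6neg and spleen cells stayed at 0, and the interactions at 2, 3 to 5 and 0.

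Between CXCR6pos and CXCR6neg cells on ND, 1 member (Cish) was called with the replicate block or without the ND libraries against their Cxcr6 labels, against 0. The libraries left out in the latter run were picked by their Cxcr6 level in these data. Without those libraries 1 was called between CXCR6pos and spleen on ND, against 2. For CXCR6neg against spleen on CD-HFD, 2 became 1 with DESeq2 size factors, DESeq2, the block or without libraries of low depth, and 0 with the identical library kept in liver or both groups. On ND, 2 became 1 with no filter and with the identical library kept in liver or both groups, where the Il2rb call was lost. It was also 1 with the compared groups alone (with or without the block). There Cish did not pass the filter on low counts and was not tested. The cause of the changed calls was not tested.

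Counts of genes moved by over 1.5 times in some comparisons. On ND, 2 calls between liver fractions became 0 to 18, 75 with the block, 90 without the ND libraries against their Cxcr6 labels, and 0 to 58 with single libraries left out. With the block, 697 diet calls in CXCR6pos cells became 418, and 890 calls against spleen on ND became 575. Diet calls ran from 8 to 55 against 29 in CXCR6neg cells and 0 to 12 against 2 in spleen, left-out libraries included. CXCR6neg against spleen on ND gave 245 and 209 against 424 with the identical library kept in liver or both groups. Interactions gave 53 against 89 without the ND libraries against their labels, and 0 to 8 against 0 between CXCR6neg and spleen. The replicate block has no support in the labels or in the deviations, where 0 pairs correlated over 0.1; under it the Il15ra call against spleen on CD-HFD (edgeR adjusted p = 0.056) and the Il21r interaction against spleen (0.122) were lost.

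Depth limits Il2ra, Il18rap, Il18r1, Il15ra and Il7r, which had 2, 20, 26, 43 and 48 counts over the CD-HFD CXCR6pos libraries.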
